A study of Mus musculus with 3 samples.

Results

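The 7 genes described here encode the mechanotransduction channel complex and the tip link of cochlear hair cells: *Tmc1*, *Tmc2*, *Tmie*, *Lhfpl5*, *Cib2*, *Pcdh15* and *Cdh23*. They were chosen by symbol, as 7 of the 32285 genes counted. The 3 libraries were made from dissociated cochleae of C57/B6 mice, 1 at P14 (14 days) and 2 at P28 (28 days, replicates 1 and 2), and each pooled 14 ears of 7 mice. The labels name no transgene, deletion or treatment, and the groups differed in age. The tissue came mainly from the middle and apical turns, so the base of the cochlea is poorly represented. In the 10x 3′ assay each captured RNA molecule is tagged with a unique molecular identifier (UMI), and the UMIs of each gene are counted in each cell barcode.

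In a hair cell, deflection of the stereocilia tightens fine extracellular filaments, the tip links, and opens cation channels at the lower end of each link. The upper part of the tip link is cadherin 23 and the lower part is protocadherin 15. TMC1 and its close relative TMC2 form the pore, TMIE and LHFPL5 join the pore to protocadherin 15, and CIB2 is a calcium-binding protein that attaches to the TMC proteins. In the mouse cochlea TMC2 is known as the pore protein of immature hair cells, and TMC1 as that of mature ones.

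Barcodes with 200 to 6000 genes and at most 15% mitochondrial UMIs were kept, which left 1662 of 2513 at P14, 5651 of 11948 in P28 replicate 1 and 7065 of 18196 in P28 replicate 2. The libraries held between 10125255 and 37530956 UMIs, and the kept barcodes had median depths of 2477, 2421 and 2037 UMIs. Between 4 and 10 barcodes were shared by any 2 libraries, and none of these carried the same counts. The cells were clustered without the 7 genes and without 35 other genes of the transduction apparatus, and clusters were named from marker genes, so that a name ending in "-like" rests on those markers alone. OHC-like (outer hair cell) cells numbered 276 at P14 and 365 and 283 at P28. IHC-like (inner hair cell) cells numbered 60, 113 and 76, and all other kept barcodes, unnamed clusters included, numbered 1326, 5173 and 6706.

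The hair cell markers fitted these names, with a limit for the IHC-like cells. The summed level of 6 OHC markers was 23191 to 37406 CPM (the count of a gene scaled to a class total of 1000000 UMIs) in OHC-like cells and 408 to 542 CPM in IHC-like cells. The 7 IHC markers summed to 9575 to 10356 CPM in IHC-like cells and to 484 to 855 CPM in OHC-like cells. At P28, however, markers of inner phalangeal and border cells, which surround IHCs, reached 61.6% and 57.3% of their own class's level in IHC-like cells, against 11.7% and 11.2% in OHC-like cells. *Gata3* led these sums, with 1125 and 1051 CPM in IHC-like cells. It also stood at 374 CPM in OHC-like cells at P14, where *Slc1a3* was at 1.61 CPM, so the percentages can overstate supporting cell RNA. *Slc1a3* alone stood at 895 and 797 CPM in IHC-like and 1966 and 1998 CPM in IPhC/IB-like cells at P28. The IHC-like cells of the 2 ages also differed in depth, with median UMIs of 1026 at P14 and 9310 and 8008 at P28. IHC-like cells with over 3000 genes numbered 12, 74 and 56. They held 182692, 890877 and 530822 of the 252424, 969144 and 594604 UMIs of the class. The summed IHC-like levels and tests below thus rest mostly on these gene-rich cells, at P14 on 12 of 60 cells. A further setting was therefore chosen after seeing the data. For the 7 genes alone, the IHC-like tests, ratios and age comparisons below were also computed with IHC-like cells of up to 3000 genes. In these the supporting cell transporter *Slc1a3* stood at 86.0, 498 and 329 CPM, against 235, 929 and 853 CPM in IHC-like cells with more genes. Its part in the results was otherwise not tested.

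The genes differ in size, position and start region. On GRCm38 (GENCODE M21) *Tmc1* lies at chr19:20783458-20954202 on the minus strand, *Tmc2* at chr2:130195194-130264445 on the plus strand, and *Tmie* at chr9:110865711-110880113 on the minus strand. *Lhfpl5* lies at chr17:28575641-28585679 on the plus strand and *Cib2* at chr9:54544794-54560218 on the minus strand. Both cadherin genes are on chromosome 10, *Pcdh15* at chr10:73099342-74649737 on the plus strand, over 1550 kb, and *Cdh23* at chr10:60302748-60696490 on the minus strand. *Als2cl*, on the opposite strand, overlaps 244 bases of *Tmie* and had 357 UMIs in all barcodes against 2279 for *Tmie*. The strand setting of the counting is not given in the sources used here.

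Promoter sequence from RefSeq (GRCm38.p6), from 250 bases before to 50 bases after the start, was matched for 6 of the 7 genes, all but *Tmc2*. The promoters of *Tmie*, *Lhfpl5* and *Cib2* held 39, 28 and 20 CpG pairs with a GC content of 73.7%, 70.7% and 71.3%. Those of *Tmc1*, *Pcdh15* and *Cdh23* held 1, 8 and 5 CpG pairs with 42.0%, 50.7% and 54.0% GC, and the median over 32851 promoters was 7 CpG pairs. Motifs were searched on both strands. CAGCTG, a form of the E-box CANNTG, occurs in 3 of the 6 promoters and in 16.3% of all promoters. The TATA box letters TATAAA occur in the *Pcdh15* promoter alone of the 6 and in 13.6% of all promoters, or in 1.87% when required on the gene's own strand 40 to 21 bases before the start. The other motifs searched were CANNTG (5 of the 6 promoters, 72.3% of all), GGGCGG (3, 35.7%), ATTA (3, 58.0%), TAATTA, which contains ATTA (0, 5.29%) and ATGCAAAT (0, 1.74%). A match is only a run of letters and no evidence of binding. 4 promoters are printed 5′ to 3′ on the gene's strand because the RNAs of *Tmie* and *Lhfpl5* differed most between the hair cell classes, *Tmc1* encodes the pore, and *Pcdh15* was also found outside hair cells. Capitals mark CAGCTG and TATAAA.
Tmie (chr9:110880024-110880323, minus strand): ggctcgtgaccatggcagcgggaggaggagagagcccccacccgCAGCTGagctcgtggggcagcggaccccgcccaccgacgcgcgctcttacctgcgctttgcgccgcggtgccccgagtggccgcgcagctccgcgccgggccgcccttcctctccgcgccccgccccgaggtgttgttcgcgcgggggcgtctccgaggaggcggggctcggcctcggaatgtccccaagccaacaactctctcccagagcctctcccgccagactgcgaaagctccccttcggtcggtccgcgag
Lhfpl5 (chr17:28575469-28575768, plus strand): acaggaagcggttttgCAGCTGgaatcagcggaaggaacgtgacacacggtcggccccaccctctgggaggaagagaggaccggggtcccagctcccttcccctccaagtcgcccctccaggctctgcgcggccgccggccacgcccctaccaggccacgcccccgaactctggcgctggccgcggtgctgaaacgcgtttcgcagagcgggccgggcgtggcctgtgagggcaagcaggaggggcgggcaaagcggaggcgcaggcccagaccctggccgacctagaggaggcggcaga
Tmc1 (chr19:20954153-20954452, minus strand): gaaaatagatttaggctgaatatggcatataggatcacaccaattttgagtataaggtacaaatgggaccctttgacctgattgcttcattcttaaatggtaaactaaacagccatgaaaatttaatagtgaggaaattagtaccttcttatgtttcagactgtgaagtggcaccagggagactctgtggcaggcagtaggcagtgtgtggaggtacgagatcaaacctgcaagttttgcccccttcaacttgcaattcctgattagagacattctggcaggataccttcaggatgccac
Pcdh15 (chr10:73821617-73821916, plus strand): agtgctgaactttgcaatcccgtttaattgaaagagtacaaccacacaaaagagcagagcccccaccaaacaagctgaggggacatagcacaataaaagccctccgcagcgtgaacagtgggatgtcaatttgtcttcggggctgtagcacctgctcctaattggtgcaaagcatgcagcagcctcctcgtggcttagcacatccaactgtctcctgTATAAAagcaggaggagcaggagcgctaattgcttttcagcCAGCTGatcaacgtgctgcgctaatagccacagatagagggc
The *Pcdh15* start printed lies inside the span of the GENCODE gene, downstream of its first annotated start.

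*Tmc1* stood at 775 CPM (95% exact Poisson interval 736 to 817) in OHC-like cells at P14, and at 603 (573 to 634) and 681 (638 to 726) CPM in the P28 replicates. In IHC-like cells it stood at 361 (290 to 443), 268 (237 to 303) and 304 (262 to 352) CPM. In all other cells it stood at 8.28, 2.55 and 3.47 CPM. The OHC-like cells were thus above the IHC-like cells in every library, with no overlap of the intervals, and both were far above the rest. These intervals cover counting error only, as do all others given here.

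*Tmc2* was barely found. It had 2 UMIs in all barcodes of the 3 libraries and 1 in the kept barcodes, in an OHC-like cell of P28 replicate 2. In OHC-like cells a count of 0 of 276 cells at P14 allows a share of up to 1.09% of cells with a UMI and a level of up to 1.61 CPM. In P28 replicate 1, 0 of 365 cells allows up to 0.822% and 1.22 CPM. In IHC-like cells 0 of 60 cells at P14 allows up to 5% and 11.9 CPM, and 0 of 113 and 0 of 76 cells at P28 allow 2.65% and 3.95%. At both ages *Tmc2* was therefore below these limits in hair cells, where *Tmc1* was at 268 CPM or more.

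The small transmembrane partners of the pore followed. In OHC-like cells *Tmie* measured 299, 252 and 237 CPM (P14, then P28 replicates 1 and 2, here and below), and in IHC-like cells it measured 55.5, 36.1 and 48.8 CPM. In all other cells *Tmie* was low, with levels of 3.57, 2.79 and 3.00 CPM. In OHC-like cells *Lhfpl5* measured 1134, 855 and 827 CPM, in IHC-like cells 515, 311 and 266 CPM, and in all other cells 6.21, 3.97 and 3.47 CPM. For both genes the lowest OHC-like library lay above the highest IHC-like library.

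*Cib2*, for the calcium-binding partner, measured in OHC-like cells 4179, 4066 and 3891 CPM. In IHC-like cells it stood at 4465 CPM at P14 and at 2346 and 2319 CPM at P28, so that OHC-like cells were higher at P28, while at P14 the intervals of the classes overlapped (4087 to 4273 CPM in OHC-like and 4208 to 4733 CPM in IHC-like cells). In all other cells it stood at 85.8, 91.1 and 74.1 CPM.

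Of the tip link cadherins, *Cdh23* (upper part) measured in OHC-like cells 151, 177 and 167 CPM, and in IHC-like cells 131, 153 and 140 CPM. In all other cells it was at 1.88, 4.77 and 2.16 CPM. For *Pcdh15* (lower part) the OHC-like libraries gave 44.5, 90.7 and 97.0 CPM and the IHC-like libraries 59.4, 91.8 and 140 CPM. In all other cells it stood at 18.4, 25.9 and 25.4 CPM, so that its distance from the other cells was the smallest among the 6 genes detected, as fold changes below show.

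**Figure D1:**
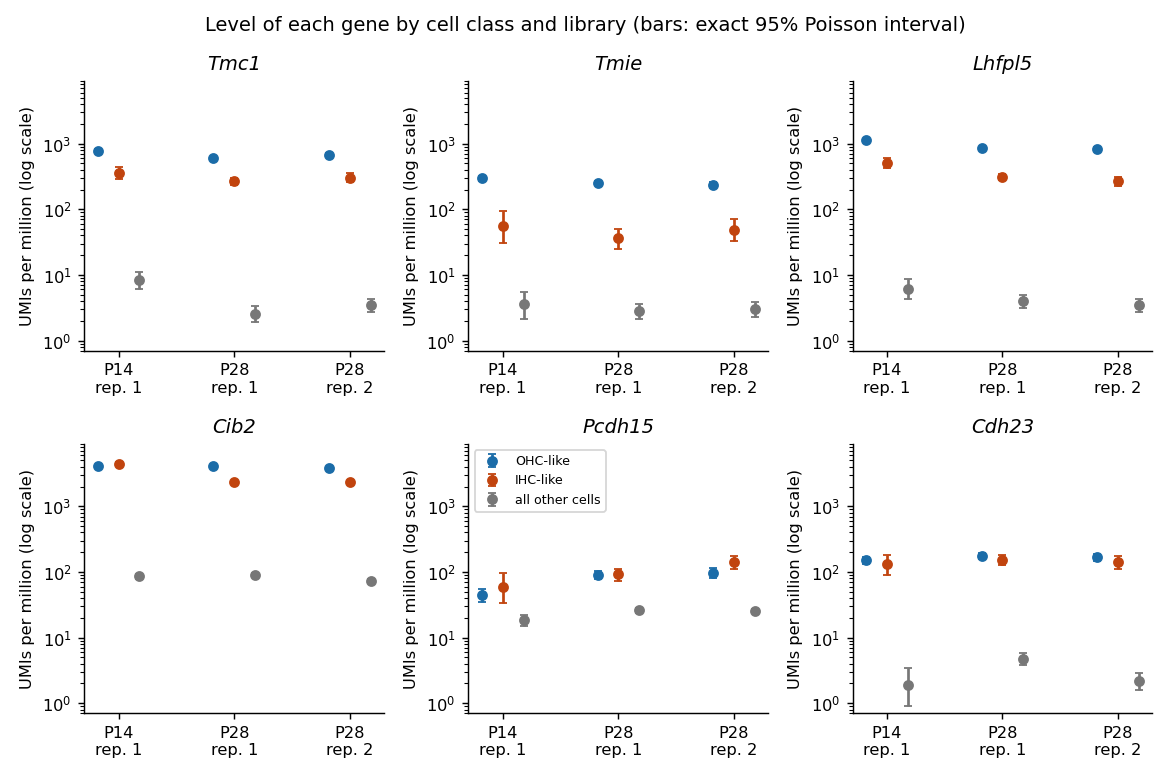
Level of each detected gene (CPM, log axis) in OHC-like cells, IHC-like cells and all other cells, with a point for each library and bars for the 95% exact Poisson interval. *Tmc1*, *Tmie* and *Lhfpl5* are ordered OHC-like, IHC-like, other in every library, while *Pcdh15* in other cells lies at 18.4 to 25.9 CPM, near its hair cell levels of 44.5 to 140 CPM.

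Whether the complex differs between the hair cell types was tested on UMIs summed per class and library, with 3 sums in each class and the library in the model. Of the 6 genes tested, 4 were higher in OHC-like cells and none was lower, while 16.6% of the 9470 genes tested were called higher and 17.1% lower, with a median log2 fold change of 0.05. *Tmie* was higher by 2.66 on the log2 scale (SE 0.18, 6.33-fold, edgeR quasi-likelihood test with Benjamini-Hochberg adjustment, adjusted p = 9.61e-06). *Lhfpl5* was higher by 1.55 (SE 0.15, 2.93-fold, edgeR adjusted p = 6.51e-05) and *Tmc1* by 1.28 (SE 0.14, 2.43-fold, edgeR adjusted p = 0.000106). These differences were seen in 3 of 3 libraries and passed the test under all 14 alternative settings tried. The p-values rest on how far the class difference varied among these 3 pooled libraries, a spread that edgeR also estimates across genes. With 1 library at P14 and 2 at P28, age is part of that spread.

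*Cib2* was higher in OHC-like cells by 0.62 (SE 0.18, 1.54-fold, edgeR adjusted p = 0.0246), but in 2 of 3 libraries only, and the call was lost under 5 of 14 alternatives. It was lost without P28 replicate 1 (0.46, edgeR adjusted p = 0.335) and without P28 replicate 2 (0.50, edgeR adjusted p = 0.273), with IHC-like cells of up to 3000 genes (0.53, edgeR adjusted p = 0.0907), and without the replicate block for the library (0.53, edgeR adjusted p = 0.327). The cadherins did not pass the test. *Cdh23* had a log2 difference of 0.36 (SE 0.14, edgeR adjusted p = 0.0815) and *Pcdh15* one of -0.15 (SE 0.18, edgeR adjusted p = 0.569). With IHC-like cells of up to 3000 genes the *Pcdh15* value was 0.67 (edgeR adjusted p = 0.388), so its sign depends on those cells.

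**Figure D2:**
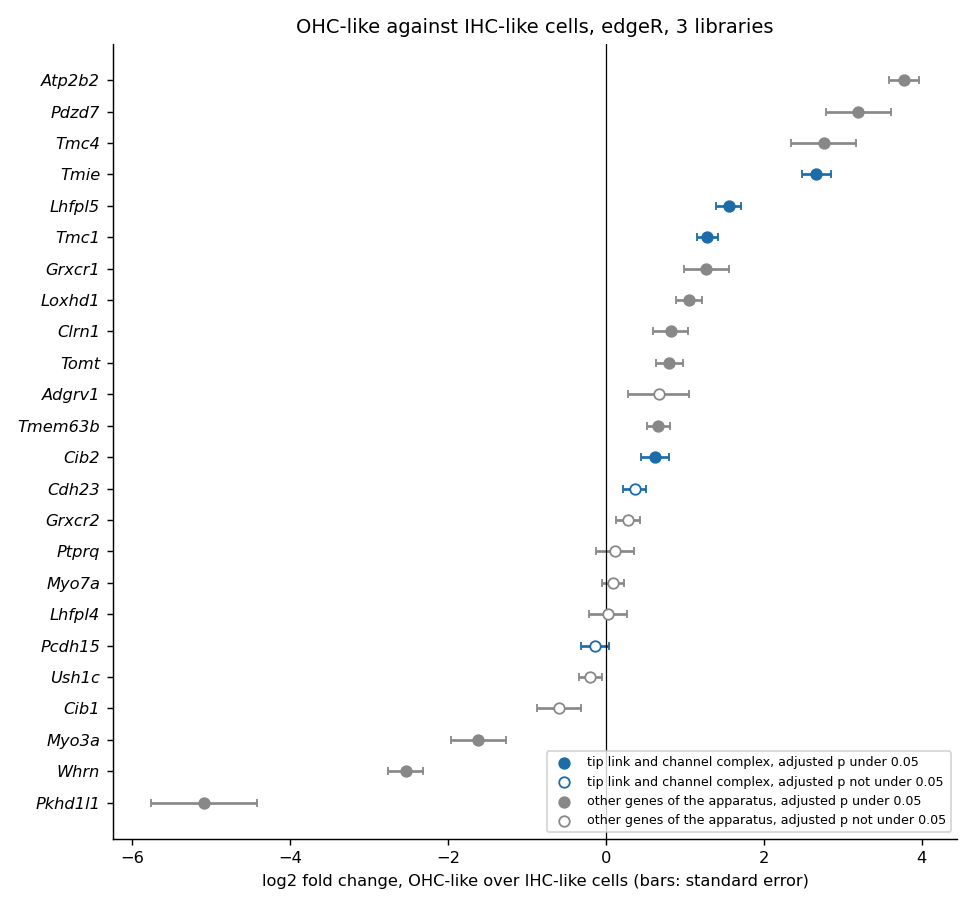
Log2 fold change of OHC-like over IHC-like cells for the 6 genes tested and the tested apparatus genes, with the fitted value and its SE. *Tmie*, *Lhfpl5* and *Tmc1* lie at 2.66, 1.55 and 1.28, and *Cib2* at 0.62.

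Because classes can differ in how much of all their RNA is hair bundle RNA, the genes were also set against *Tmc1* within each class. OHC-like cells held 0.385, 0.417 and 0.348 *Tmie* UMIs per *Tmc1* UMI, and IHC-like cells held 0.154, 0.135 and 0.160, so the ratio was 2.50, 3.1 and 2.17 times as high in OHC-like cells. The ratio of *Lhfpl5* to *Tmc1* differed less between the classes, by 1.02, 1.22 and 1.39 times. *Cdh23* per *Tmc1* UMI was 0.195, 0.293 and 0.244 in OHC-like and 0.363, 0.569 and 0.459 in IHC-like cells, that is 0.538, 0.514 and 0.533 times as high in OHC-like cells. For *Pcdh15* this factor was 0.348, 0.439 and 0.311, and for *Cib2* it was 0.435, 0.771 and 0.750. Each of the 5 ratios differed in 1 direction in 3 of 3 libraries when all IHC-like cells were used. An exact sign-flip permutation test over 3 libraries cannot give a two-sided p below 0.25, and it gave p = 0.25 for each. In IHC-like cells of up to 3000 genes, with 17 to 31 *Tmc1* UMIs a library, *Cdh23* per *Tmc1* UMI was 0.476, 0.471 and 0.452. These values lay above the OHC-like ones, on 10, 8 and 14 *Cdh23* UMIs. *Tmie* per *Tmc1* UMI was 0.048, 0.118 and 0.194 in these cells, below the OHC-like values. With only 1, 2 and 6 *Tmie* UMIs, these ratios are too uncertain to bear out the difference. *Lhfpl5* per *Tmc1* UMI was 2.24, 1.47 and 1.03 there, above the OHC-like values of 1.46 and 1.42 in P14 and P28 replicate 1 and below that of 1.21 in P28 replicate 2, so its direction turned in 2 of 3 libraries. *Pcdh15* per *Tmc1* UMI was 0.190, 0.176 and 0.161 there, and so at P28 it came near the OHC-like values of 0.150 and 0.142, whereas it had been 0.342 and 0.459 in all IHC-like cells of the P28 replicates. It rested on 3 to 5 *Pcdh15* UMIs a library.

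**Figure D3:**
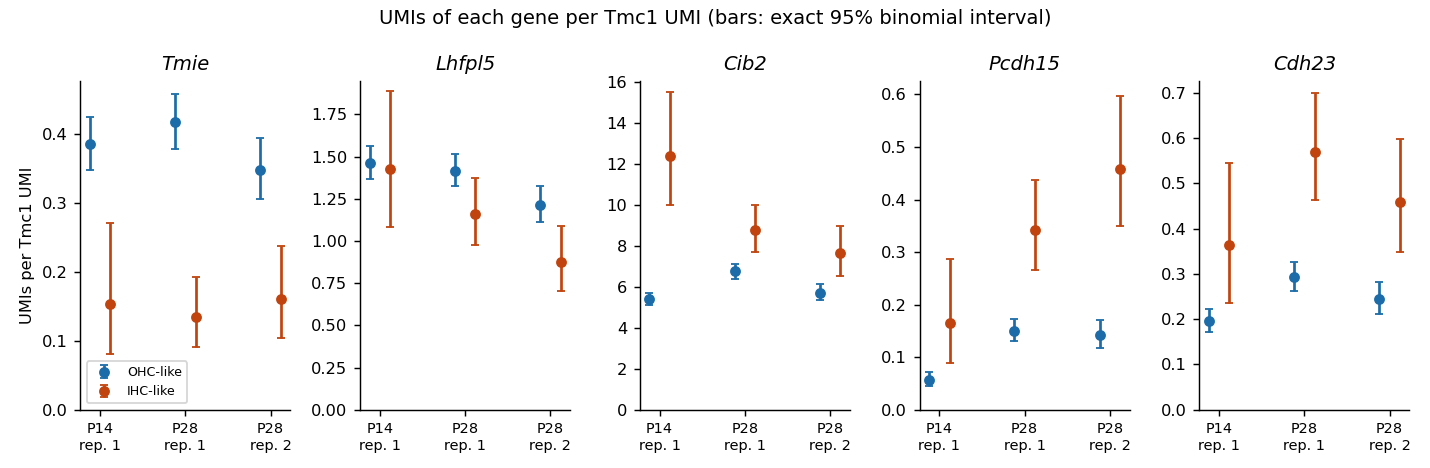
UMIs of *Tmie*, *Lhfpl5*, *Cib2*, *Pcdh15* and *Cdh23* per *Tmc1* UMI in OHC-like and IHC-like cells of each library, with 95% intervals for counting error. The *Tmie* points of the classes lie apart (0.348 to 0.417 against 0.135 to 0.160), and those of *Pcdh15* and *Cdh23* lie apart in the opposite direction.

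Against all cells other than hair cells, all 6 genes tested were higher in OHC-like cells, where 24% of 12997 genes were higher and 30.2% lower. *Lhfpl5* was 220-fold higher (log2 7.78, SE 0.21, edgeR adjusted p = 0.00087), *Tmc1* 171-fold (7.42, SE 0.43), *Tmie* 87.5-fold (6.45, SE 0.16), *Cdh23* 61.1-fold (5.93, SE 0.31) and *Cib2* 50.4-fold (5.66, SE 0.14). *Pcdh15* was 3.35-fold higher (1.75, SE 0.22, edgeR adjusted p = 0.00697). All 6 were higher in IHC-like cells too, where 13.3% of 12673 genes were higher and 22.6% lower. There *Lhfpl5* was 67.4-fold, *Tmc1* 64.0-fold, *Cdh23* 41.6-fold, *Cib2* 29.6-fold and *Tmie* 12.5-fold higher. *Pcdh15* was 3.50-fold higher (1.81, SE 0.24, edgeR adjusted p = 0.00188), a call that was lost with IHC-like cells of up to 3000 genes (0.85, edgeR adjusted p = 0.312). A gene as low in all other cells as *Cdh23* can pass the filter on low counts through the hair cell class alone. For such a gene the call lends little support beyond the levels, and the size of its fold change is uncertain. The hair cell classes held 93.8% to 97.2% of the kept *Tmc1* UMIs, 94.6% to 98.6% of those of *Lhfpl5*, 84.8% to 96.8% of *Tmie*, 81.0% to 95.1% of *Cib2* and 85.3% to 96.9% of *Cdh23*. For *Pcdh15* the shares were 50%, 36.4% and 28.6%. Of all kept UMIs, OHC-like cells held 25.1%, 10.0% and 5.93% and IHC-like cells 3.40%, 3.94% and 2.55%. Shares of a gene's UMIs therefore also follow the mix of cells in each library and are no measure of change with age.

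Outside hair cells, the named classes with the highest *Pcdh15* levels at P28 were supporting cells of the organ of Corti and their neighbours, and some unnamed clusters, whose values are given among the other observations, reached like levels. Over the 12 named classes compared at P28 (mean ± SD, n = 2 libraries), the highest level was 121 ± 15.9 CPM in DC/PC-like cells, which carry markers of Deiters' and pillar cells. IHC-like cells followed with 116 ± 33.8 CPM, OHC-like cells with 93.9 ± 4.44 CPM and IPhC/IB-like cells (inner phalangeal and border cells) with 88.3 ± 5.50 CPM. The intervals of neighbours in this order overlapped in both libraries, so these 4 classes could not be ordered. ISC/HeC/OSC-like cells, of the inner sulcus, Hensen's and outer sulcus groups, stood at 51.4 ± 11.1 CPM, overlapped IPhC/IB-like cells in 1 of 2 libraries and did not overlap with fibrocyte-like cells, at 17.7 ± 2.91 CPM. Spiral ganglion neuron-like (SGN-like) cells were lowest with 2.09 ± 0.34 CPM.

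Free RNA from hair cells can add UMIs to any droplet. The level it would give was computed in each class from *Ocm* (for OHCs) and *Otof* (for IHCs), as the class level of that marker over its hair cell level, times the level of the gene in those hair cells. In DC/PC-like cells at P28 *Ocm* had a UMI in 9.33% and 7.14% of cells (176 and 56 UMIs), and in SGN-like cells in 17.0% and 4.05%. Whether this was free RNA or hair cell RNA in a few mixed barcodes was not tested. For *Pcdh15* the computed level came to 3.02 and 2.84 CPM in DC/PC-like cells at P28, to 0.528 and 2.24 CPM in IPhC/IB-like cells, and to 0.428 and 0.933 CPM in ISC/HeC/OSC-like cells. The measured levels were many times larger. For *Cib2* the DC/PC-like cells gave the opposite picture, with 124 and 94.1 CPM measured and 130 and 93.0 CPM computed. The DC/PC-like class held 75, 75 and 42 cells, and 58 *Pcdh15* UMIs over the P28 libraries. At P14 *Pcdh15* stood at 47.2 CPM in DC/PC-like and 17.2 CPM in ISC/HeC/OSC-like cells.

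Among the named classes compared outside hair cells, *Cib2* was highest in the spiral ganglion. SGN-like cells at P28 had 253 ± 8.25 CPM of *Cib2* (n = 2 libraries), next after OHC-like cells (3978 ± 124) and IHC-like cells (2333 ± 19.2), without overlap with the next class. The replicates measured 259 and 247 CPM, and free hair cell RNA computed in the same way would give 17.6 and 13.1 CPM. *Lhfpl5* in SGN-like cells was at 12 and 13 CPM (3.37 and 2.39 from free RNA) and *Cdh23* at 23.1 and 9.57 CPM (0.86 and 0.64). *Tmc1* there stood at 1.46 and 2.47 CPM, near the 2.47 and 2.12 CPM computed for hair cell RNA. In DC/PC-like cells at P28 the other members were near the level computed for hair cell RNA, whose source was not tested. *Tmc1* stood at 26.6 and 18.8 CPM against 19.0 and 15.6 CPM, and *Lhfpl5* at 17.7 and 18.8 CPM against 26.8 and 18.3 CPM. *Tmie* there was at 5.90 and 12.5 CPM against 7.72 and 5.06 CPM, on 4 UMIs.

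**Figure D4:**
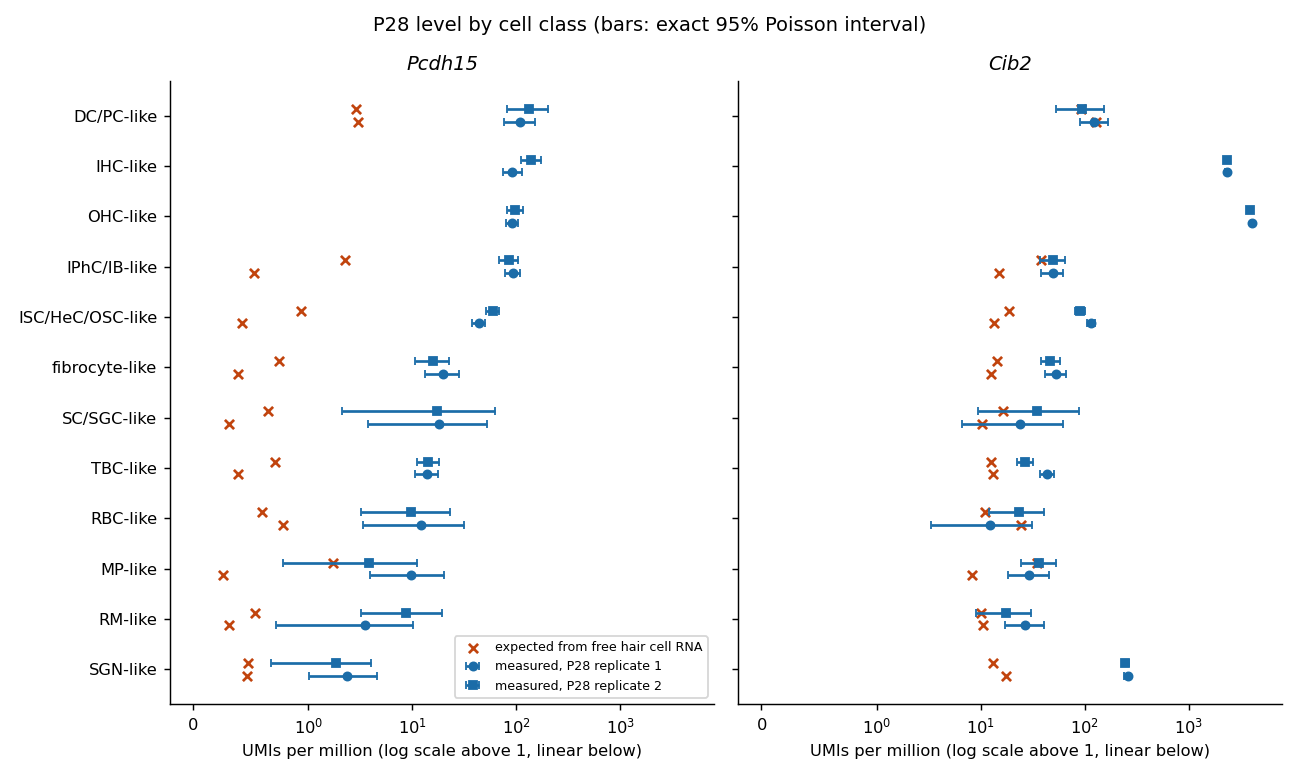
Level (CPM, log axis) of *Pcdh15* and *Cib2* in the named classes compared at P28, a point for each library, with crosses for the level computed for free hair cell RNA. *Pcdh15* in DC/PC-like, IPhC/IB-like and ISC/HeC/OSC-like cells and *Cib2* in SGN-like and ISC/HeC/OSC-like cells stand above their crosses, whereas *Cib2* in DC/PC-like cells coincides with them.

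The pattern held cell by cell. After each cell was thinned to 1000 UMIs, which left out shallower cells and kept 259, 363 and 283 OHC-like and 31, 99 and 72 IHC-like cells, *Tmc1* had a UMI in 50.6%, 45.5% and 53.4% of the OHC-like cells left and in 32.3%, 25.3% and 29.2% of the IHC-like cells left. *Tmie* had one in 26.6%, 24.2% and 21.2% of OHC-like cells, in 0 of 31 IHC-like cells at P14, which allows a share of up to 9.68%, and in 5.05% and 6.94% at P28. In all other cells, with median depths of 1943 to 2241 UMIs before thinning against 3751 to 6485 in OHC-like cells, these shares were 0.257% to 0.496% for *Tmc1* and 0.279% to 0.496% for *Tmie*. Before thinning *Tmc1* had a UMI in 96.4%, 94.8% and 90.8% of OHC-like cells. The IHC-like shares were then 40%, 66.4% and 82.9%, and those of all other cells 1.58%, 0.793% and 0.820%. After thinning *Cib2* was found in at least 95.1% of OHC-like and 89.9% of IHC-like cells. Among thinned OHC-like cells *Pcdh15* was found in 7.34%, 7.99% and 9.54% and *Cdh23* in 15.4%, 16.5% and 17.3%. Among thinned IHC-like cells *Pcdh15* was found in 9.68%, 9.09% and 18.1% and *Cdh23* in 19.4%, 17.2% and 12.5%. The intervals of the classes overlapped for both cadherins, and neither was higher in OHC-like cells in every library. At full depth these OHC-like shares were 22.5%, 41.4% and 33.2% for *Pcdh15* and 60.5%, 63.6% and 50.5% for *Cdh23*. A thinned OHC-like cell held RNA of 2.58, 2.48 and 2.54 of the 7 genes on average, an IHC-like cell of 2.03, 1.73 and 1.89, and any other cell of 0.093, 0.099 and 0.082. At full depth, 35 of 276, 82 of 365 and 35 of 283 OHC-like cells held at least 1 UMI of all 6 genes other than *Tmc2*.

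The ages were compared without a test, since P14 had 1 library. A P14 level was called outside P28 where its interval overlapped neither P28 interval. The shares over all genes cover genes with at least 30 UMIs in the class, whereas the genes described here needed only 10. In OHC-like cells 4 of 6 genes lay outside, 3 higher at P14 (10.1% of 10125 genes were) and 1 lower (15.7% of genes). *Lhfpl5*, *Tmie* and *Tmc1* were 1.35-, 1.22- and 1.21-fold higher at P14 than the P28 mean. *Tmc1* and *Tmie* no longer lay outside without the 5% highest doublet scores (log2 ratios of P28 over P14 of -0.19 and -0.22), nor with haemoglobin, mitochondrial and ribosomal protein genes left out of the CPM total (-0.17 and -0.18) or in thinned cells (-0.31 and -0.20). *Pcdh15* was 2.11-fold higher at P28, at 93.9 ± 4.44 CPM against 44.5 CPM. This *Pcdh15* difference was smaller where each cell counted equally, with a log2 ratio of 0.28 in thinned cells, where it no longer lay outside, against 1.08 in the sums. *Cib2* and *Cdh23* in OHC-like cells did not lie outside (log2 ratios of P28 over P14 of -0.07 and 0.18), which for *Cib2* held in 7 of the 9 alternatives with an interval.

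In IHC-like cells 2 of 6 genes lay outside, both higher at P14 (6.55% of 7877 genes were, and 7.64% were lower). *Cib2* was 1.91-fold higher at P14, at 4465 CPM against 2333 ± 19.2 CPM, and *Lhfpl5* was 1.79-fold higher, at 515 against 288 ± 31.7 CPM. *Lhfpl5* did not lie outside with IHC-like cells of up to 3000 genes (log2 ratio -0.72), with 200 to 3000 genes and at most 15000 UMIs in all cells (-0.78) or in thinned cells (-1.08), where fewer UMIs were counted. *Tmc1*, *Tmie*, *Pcdh15* and *Cdh23* did not lie outside, with log2 ratios of P28 over P14 of -0.33, -0.39, 0.96 and 0.16. With 200 to 3000 genes and at most 15000 UMIs in all cells the log2 ratio was -0.035 for *Pcdh15* and 0.22 for *Tmc1*. In IHC-like cells of up to 3000 genes *Pcdh15* stood at 57.4 CPM at P14 and at 38.3 and 78.4 CPM at P28, on 4, 3 and 5 UMIs. Only 14 *Tmie* and 15 *Pcdh15* UMIs were counted in IHC-like cells at P14, of which 13 and 11 came from the 12 cells with over 3000 genes. The *Pcdh15* interval at P14, 33.3 to 98.0 CPM, overlapped that of P28 replicate 1 but not that of replicate 2, and smaller changes of these 2 genes were not detectable at this depth. Age, library and depth cannot be told apart here, and the supporting cell markers in IHC-like cells given above also moved with age.

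Other genes of the transduction apparatus, 35 in a list that also holds paralogs, were read in the same way. The alternative settings were not applied to them. Between the hair cell classes 18 were tested, of which 8 were higher in OHC-like cells, 3 were lower and 7 did not pass, where 16.6% of all genes were higher and 17.1% lower, with a median log2 fold change of 0.47 against 0.05 over all genes. The highest was *Atp2b2*, the calcium pump of the bundle, at 802, 534 and 549 CPM for OHC-like cells against 43.6, 50.6 and 47.1 CPM for IHC-like cells (log2 3.77, SE 0.19). *Pdzd7*, an ankle link scaffold, was higher by 3.19 (SE 0.41) and *Tmc4*, a relative of the pore genes, by 2.76 (SE 0.41). *Grxcr1*, *Loxhd1*, *Clrn1*, *Tomt* and *Tmem63b* were higher by 1.27, 1.05, 0.82, 0.80 and 0.66, *Clrn1* in 2 of 3 libraries. *Tomt*, needed to bring TMC1 to the bundle, measured 309, 310 and 303 CPM for OHC-like cells against 261, 164 and 177 CPM for IHC-like cells. Lower in OHC-like cells were *Pkhd1l1*, of the stereocilia coat (-5.09, SE 0.67), *Whrn*, the whirlin scaffold (-2.54, SE 0.22) and *Myo3a*, a stereocilia motor (-1.62, SE 0.35). *Whrn* stood at 127, 125 and 121 CPM in IHC-like and 13.4, 20.3 and 23.9 CPM in OHC-like cells. *Pdzd7*, *Tmc4* and *Pkhd1l1* had only 243, 194 and 35 UMIs in the hair cell classes together, nearly all in the higher class. They passed the filter on low counts through that class alone, so their calls lend little support and the size of their fold changes is uncertain.

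Also at 100 CPM or more in all libraries were *Grxcr2*, *Myo7a* and *Ush1c* in both hair cell classes. Set against all other cells, OHC-like cells had 16 of 24 tested genes of the list higher and 6 lower (median 3.09), where 24% and 30.2% of all genes were. IHC-like cells had 14 of 25 higher and 7 lower (median 3.34), where 13.3% and 22.6% of all genes were. Genes of the list that are low in all other cells can pass the filter on low counts through the hair cell class alone. The counts of higher genes and both medians therefore lend little support. The paralogs *Tmc3*, *Tmc5*, *Cib3* and *Cib4* had 0 UMIs in hair cells. Between the ages, 3 of 20 genes lay higher at P14 in OHC-like cells (*Ptprq*, *Grxcr1*, *Atp2b2*) and 4 lower (*Myo7a*, *Clrn1*, *Loxhd1*, *Grxcr2*), where 10.1% and 15.7% of all genes did. In IHC-like cells 4 of 20 lay higher at P14 (*Ptprq*, *Grxcr1*, *Pkhd1l1*, *Myo3a*) and 1 lower (*Grxcr2*), where 6.55% and 7.64% of all genes did.

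The genes whose levels ran most closely with each member were sought over 38 sums of 17 named classes (Pearson's r of log2(CPM + 10), 9954 genes, given as a description since the sums share libraries). *Tmc1* ran closest with *Myo15* (0.977), *Gpr152* (0.973) and *Gipc3* (0.971), and *Lhfpl5* with *Trim45* (0.981), *Espn* (0.977) and *Gipc3* (0.975). *Cdh23* ran closest with *Osbp2* (0.976) and *Kcna10* (0.969), *Cib2* with *Camk2b* (0.961), *Cd164l2* (0.953) and *Car7* (0.947), and *Tmie* with *Gm5111* (0.944), *Lhx3* (0.943) and *Gm17108* (0.938). *Pcdh15* stood apart, with r of 0.861 for *Efhd1*, 0.855 for *Gpx2* and 0.853 for *Tmprss3*.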

How the data were processed

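The deposited values are UMI counts of genes in cell barcodes, 1 matrix a library, which the authors made with Cell Ranger (version 6.0.1 in the submitters' processing notes, 5.0.1 in the file header) on mm10. These counts carry no normalization and no filter beyond cell calling. Everything else was computed from them. The 7 genes, the marker and apparatus lists and the tests were chosen with earlier results of these data known.

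P14 cells alone and the integrated P28 cells were clustered in Seurat 5.3.0 (R 4.3.3) on 2000 variable genes, without the 7 genes and the 35 apparatus genes, with 30 principal components at a resolution of 1, giving 18 and 31 clusters. Clusters were named from marker genes with rebuilt names that can differ from the study's. Doublet scores (scanpy 1.11.5) called 4, 0 and 1 barcodes, so the caller had not worked, and leaving out the highest 5% of scores served as an alternative. UMIs were summed per class and library and tested with edgeR 4.0.16 (quasi-likelihood test, TMM, default filter, library as a term, Benjamini-Hochberg adjustment over all genes tested, threshold 0.05). DESeq2 1.42.0 was an alternative. The classes of a library share its cells' preparation, which pairs the sums; deviations of OHC-like and IHC-like sums from their means correlated by 0.556, 0.438 and 0.393 across genes, those of OHC-like and other cells by 0.337, 0.309 and 0.305, and those of IHC-like and other cells by 0.217, 0.183 and 0.198. Levels carry exact 95% intervals, and a count of 0 was given a limit of 3 counts. The test was also tried out on simulated data, drawn with the gene means and dispersions of these counts.

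Named were all 7 genes, apparatus genes called between the hair cell classes or at 100 CPM or more in all libraries, and for likeness the 3 genes outside the 7 with the highest correlation over sums of at least 20 cells. A result withheld for evaluation is not reported here. *Tmc3*, *Tmc5*, *Cib3* and *Cib4* and the apparatus genes that moved with age were named after their values were seen. Positions are from GENCODE M21. Python 3.11.15 with numpy 2.4.6, scipy 1.17.1, pandas 2.3.3 and matplotlib 3.10.9 was used.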

Additional observations from a re-analysis of the deposited data

Results flagged for a closer look

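*Cib2* differed between the hair cell classes at P28 and not beyond counting error at P14. Its log2 ratio of OHC-like over IHC-like CPM was -0.10 at P14, where the intervals overlapped, and 0.79 and 0.75 in the P28 replicates, a difference that was not tested because P14 had 1 library.

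RNA of these genes also lay in barcodes that the filters left out. The counts below were not split by cell class, so they need not come from hair cells. Barcodes with more than 15% mitochondrial UMIs held 1645 UMIs of *Tmc1*, 520 of *Tmie*, 1867 of *Lhfpl5*, 8104 of *Cib2*, 787 of *Pcdh15* and 511 of *Cdh23*. Barcodes with more than 6000 genes held 103 UMIs of *Tmc1*, 34 of *Tmie*, 202 of *Lhfpl5*, 1461 of *Cib2*, 51 of *Pcdh15* and 44 of *Cdh23*.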

How the results depend on the processing

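Between OHC-like and IHC-like cells, *Tmc1*, *Tmie* and *Lhfpl5* kept their direction and their call under all 14 alternatives, with log2 ranges of 1.25 to 1.37, 2.47 to 2.89 and 1.18 to 1.66. *Cib2* lost its call in 5, among them 200 to 3000 genes with at most 15000 UMIs (0.51, edgeR adjusted p = 0.192), and ranged from 0.46 to 0.89. *Pcdh15* reversed to 0.57 with that filter and to 0.67 with IHC-like cells of up to 3000 genes. *Cdh23* passed the test in 3, with at most 30% mitochondrial UMIs (0.47), without the highest doublet scores (0.47) and without P14 replicate 1 (0.35). The number of the 7 genes called was 3 to 5 with each library left out in turn, and stayed at 6 for OHC-like against other cells under all 13 alternatives. *Pcdh15* in IHC-like against other cells also lost its call with 200 to 3000 genes (0.52, edgeR adjusted p = 0.549). Taking the library term, that is the replicate block, out of the fits changed no call among the 7 genes other than that of *Cib2*. The replicate numbers count libraries within each age and join no P14 library to a P28 library, so no paired analysis of the ages was possible. The number of genes outside between the ages was 6, moved to 2 in cells thinned to 1000 UMIs, was 6 to 8 with a P28 library left out, and was 4 to 7 otherwise.

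Over all genes, 3195 calls between the hair cell classes became 927 with 200 to 3000 genes, 1174 with IHC-like cells of up to 3000 genes, 1703 without the replicate block, 2129 with DESeq2, 1704 with at least 10 UMIs in every sum, and 1566 to 4917 with each library left out. For OHC-like against other cells 7037 calls became 4403 with at least 10 UMIs and 2234 to 10486 with each library left out. For IHC-like against other cells 4547 became 2945 with 200 to 3000 genes, 2680 with up to 3000 genes in IHC-like cells, 1857 with at least 10 UMIs and 1876 to 7775 with each library left out. The cause of these moves was not tested. Depth limits *Tmie* and *Pcdh15* in IHC-like cells at P14, with 14 and 15 UMIs.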

Other observations

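A cluster of 31 OHC-like cells at P14 was rich in the nuclear RNA *Malat1*, which took 17.2% of its UMIs. It held 0.085 *Tmie* UMIs per *Tmc1* UMI, against 0.385 in all OHC-like cells of that library, but on only 4 *Tmie* and 47 *Tmc1* UMIs.

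Clusters that received no name also held *Pcdh15*. At P28 these were cluster 10, with 74.5 and 108 CPM in the 2 replicates, and cluster 11, with 48.3 and 72.2 CPM. At P14 unnamed cluster 6 stood at 89.3 CPM.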
